A study of Danio rerio with 6 samples.

Results

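To ask whether loss of *gas6* was accompanied by a change in the brain macrophages of the embryo, 10 genes that mark these cells were examined in zebrafish hindbrain. They are the transcription factor genes *spi1a*, *spi1b* and *irf8*, the receptor genes *csf1ra* and *ptprc*, the effector and cytoskeletal genes *mpeg1*, *lcp1* and *coro1a*, the transporter gene *slc7a7* and the apolipoprotein gene *apoeb*. The genes were chosen by name as known myeloid markers, with earlier results of these data known. All 10 were found under exactly these names among the 23025 genes of the deposited table, and all 10 passed the filter on low counts.

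Hindbrain tissue was taken at 48 hpf (hours post fertilization), with 3 libraries from homozygous *gas6* mutants (gas6-/-) and 3 from wildtype controls. Embryos of both groups carried the *Tg(olig2:EGFP)vu12* transgene, in which the *olig2* promoter drives a green fluorescent protein that guided the dissection. The mutants came from a homozygous line derived by CRISPR/Cas9, whose *gas6* alleles um296 to um299 all encode an early stop, and which of these alleles was sequenced is not given in the sources used here. The controls came from the transgenic line itself, so that line and *gas6* genotype cannot be told apart. Each library was a pool of hindbrains, and the paper states that the dissected tissue was deyolked before RNA was extracted. It is not stated whether pools came from separate clutches, so the p-values measure the spread between these libraries, which may be technical.

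Microglia are the resident macrophages of the brain. In zebrafish they arise from primitive macrophages that leave the yolk, enter the brain during the embryonic period and clear dying neurons. *gas6* encodes a secreted protein that links phosphatidylserine on dead cells to the receptor tyrosine kinases Tyro3, Axl and Mertk, and in mammals Axl and Mertk on macrophages use this link to engulf such cells. The myeloid lineage is set up by the Ets factor PU.1, which *spi1b* and its paralogue *spi1a* encode, and *irf8* directs myeloid cells towards macrophages rather than neutrophils.

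Total counts were between 18376627 and 27025868 in the *gas6* mutant libraries and between 21844559 and 24589101 in the wildtype libraries. Levels below are CPM, which are counts scaled to a common library size. *gas6* itself, which checks the labels, had 105, 153 and 117 counts in the mutants against 941, 898 and 790 in wildtype (log2 fold change -2.97, SE 0.136, edgeR quasi-likelihood test, adjusted p = 7.24e-08). The hindbrain genes *hoxb1a*, *egr2b*, *mafba* and *hoxb3a* were detected in all 6 libraries, but *egr2b* and *hoxb1a* were lower in mutants (log2 fold changes -2.21 and -1.41, adjusted p = 2.76e-05 and 3.5e-05). The summed level of 20 lens crystallin genes of the *crygm2d* family lay between 787 and 1534 CPM in the mutants and between 0.683 and 20.6 CPM in wildtype, and whether lens tissue in the dissections accounts for this was not tested. Over all 20463 genes tested, 33.3% passed an adjusted p-value of 0.05, with 16.7% higher and 16.6% lower in the mutants, and 9.65% also changed more than 2-fold (6.06% higher and 3.59% lower).

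Against this background, 1 of the 10 macrophage genes passed. *apoeb* was higher in *gas6* mutants, and the other 9 genes did not pass, with log2 fold changes from -0.28 for *irf8* to 0.53 for *ptprc*. No gene of the 10 changed more than 2-fold with an adjusted p under 0.05. The median log2 fold change was 0.05 over the 10 genes and -0.01 over the 9 without *apoeb*, beside 0.02 over all genes tested. In these pooled tissues a change in macrophage number and a change in RNA per macrophage cannot be told apart.

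**Figure D1:**
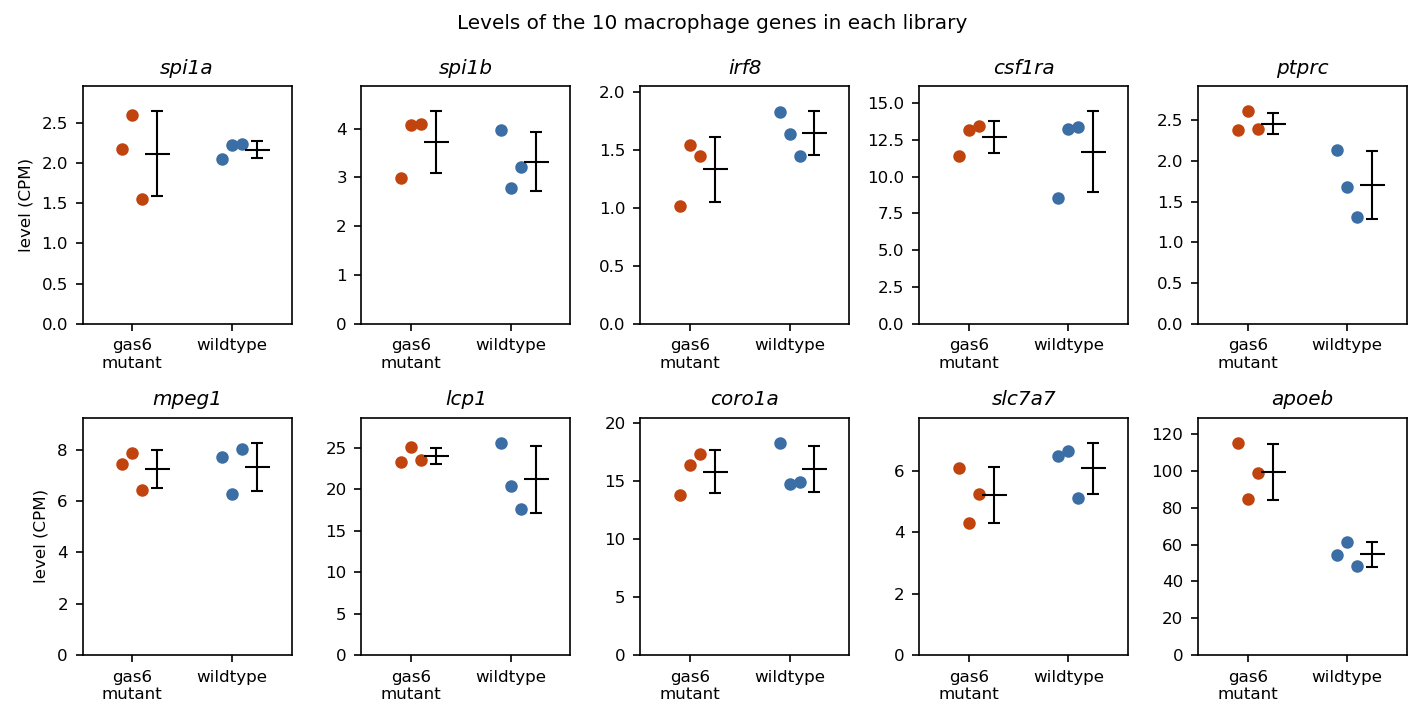
Level in CPM of each of the 10 macrophage genes, with 1 point per library (3 *gas6* mutant libraries on the left, 3 wildtype libraries on the right) and a bar for the mean and SD of 3 libraries. The mutant points lie above all wildtype points for *apoeb* (85.0 to 115 against 48.2 to 61.5 CPM) and *ptprc*, and the groups overlap for the other 8 genes.

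The transcription factors were considered first. *spi1b* had 2.99, 4.08 and 4.09 CPM in the mutant libraries, against 3.96, 2.77 and 3.22 CPM in the wildtype libraries. The groups overlapped, with mutant library 1 among the wildtype values (log2 fold change 0.18, 95% interval -0.27 to 0.63, adjusted p = 0.538). *spi1a* had 2.18, 2.61 and 1.56 CPM in mutants and 2.05, 2.23 and 2.24 CPM in wildtype (log2 fold change -0.04, 95% interval -0.55 to 0.48, adjusted p = 0.916). Here the mutant libraries held both the highest and the lowest value. *irf8* was the least abundant of the 10 in counts, with 20, 43 and 40 counts in mutants and 40, 39 and 31 in wildtype. In CPM this was 1.01, 1.54 and 1.45 against 1.82, 1.64 and 1.45, and mutant library 1 stood lowest (log2 fold change -0.28, 95% interval -0.82 to 0.27, adjusted p = 0.426). Counts of *spi1a* and *spi1b* were not all whole numbers, so some of their reads had been divided with other genes. The same held for *apoeb* in wildtype library 1. The counts do not give the proportion of such reads.

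Neither receptor gene passed. *csf1ra* encodes the receptor for the growth factors Csf1 and Il34, which macrophages need to enter and persist in the brain. Its level was 11.4, 13.2 and 13.5 CPM in mutants, against 8.56, 13.2 and 13.4 CPM in wildtype, and 5 of the 6 libraries lay close together with wildtype library 1 below them (log2 fold change 0.11, 95% interval -0.25 to 0.48, adjusted p = 0.631). Without wildtype library 1 the sign of this difference turned (-0.07). *ptprc* encodes Cd45, a membrane phosphatase shared by all leukocytes. It had 2.38, 2.61 and 2.39 CPM in mutants and 2.14, 1.68 and 1.31 CPM in wildtype. The genotypes did not overlap for this gene, as for 49% of all genes tested. The log2 fold change was 0.53 (SE 0.232, 95% interval 0.02 to 1.03), which did not pass after adjustment (edgeR quasi-likelihood test, unadjusted p = 0.0427, adjusted p = 0.101). The gene passed in the fit lacking wildtype library 1 (0.71, adjusted p = 0.0351) and with scaling to library totals (adjusted p = 0.0388, within 0.0388 to 0.209 over 8 other settings).

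None of the effector and cytoskeletal genes passed. *mpeg1* encodes a perforin-like protein of macrophages, and its promoter is widely used to label them in zebrafish. It had 7.45, 7.86 and 6.44 CPM in mutants, against 7.70, 6.26 and 8.02 CPM in wildtype (log2 fold change -0.01, 95% interval -0.35 to 0.33, adjusted p = 0.958). The interval spans 0.782 to 1.25 of the wildtype level, so a difference of 2-fold in either direction lies outside it. *coro1a*, which encodes a leukocyte actin-binding protein, had 13.8, 16.4 and 17.3 CPM in mutants and 18.3, 14.7 and 14.9 CPM in wildtype (log2 fold change -0.01, 95% interval -0.30 to 0.28, adjusted p = 0.966). *lcp1*, which encodes the actin-bundling L-plastin of leukocytes, had 23.3, 25.1 and 23.5 CPM in mutants and 25.6, 20.4 and 17.6 CPM in wildtype. Wildtype library 1 was the highest of the 6 libraries for *coro1a*, *lcp1* and *irf8* and the lowest for *csf1ra*. For *lcp1* the log2 fold change was 0.18 (95% interval -0.12 to 0.47, adjusted p = 0.339), and it passed only when that library was left out (0.33, adjusted p = 0.0345, within 0.0345 to 0.83 over 6 leave-one-out fits, each lacking a single library). A second row of the table is *MPEG1* in capitals, and which *mpeg1* gene it holds could not be settled. It is not one of the 10 genes and was singled out after its values were seen. It had 2.23, 2.11 and 2.50 CPM in mutants and 1.82, 1.43 and 1.17 CPM in wildtype (log2 fold change 0.63, SE 0.237, adjusted p = 0.0589).

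*slc7a7* encodes a transporter of cationic amino acids that marks microglial precursors in zebrafish. It had 6.08, 4.29 and 5.25 CPM in mutants, against 6.47, 6.64 and 5.13 CPM in wildtype. Mutant library 2 was lowest, the groups overlapped, and the difference did not pass (log2 fold change -0.23, 95% interval -0.63 to 0.16, adjusted p = 0.347). For 8 of the 9 genes that did not pass, the whole 95% interval lay within 2-fold in both directions. The exception was *ptprc*, with an upper limit of 2.04-fold.

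**Figure D2:**
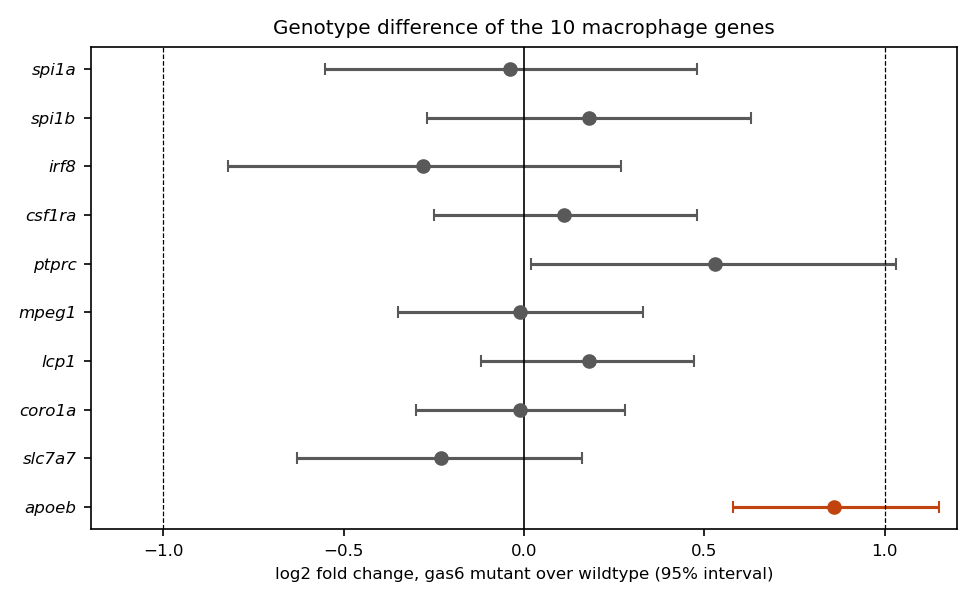
Log2 fold change of each gene in *gas6* mutants over wildtype (points) with its 95% interval from the edgeR fit (bars), where the dashed lines mark 2-fold and red marks an adjusted p under 0.05. *apoeb* alone is red (0.86, interval 0.58 to 1.15), and the intervals of the other genes apart from *ptprc* include 0.

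*apoeb* encodes an apolipoprotein E, a lipid carrier that is abundant in zebrafish microglia but is also made in the yolk syncytial layer. It had 115, 85.0 and 98.9 CPM in *gas6* mutants, against 54.4, 61.5 and 48.2 CPM in wildtype. Every mutant library lay above every wildtype library. The means were 99.7 CPM ± 15.2 in mutants and 54.7 CPM ± 6.7 in wildtype (SD, n = 3 each), a ratio of 1.82. The log2 fold change was 0.86 (SE 0.13, 95% interval 0.58 to 1.15, edgeR quasi-likelihood test, adjusted p = 0.000436), and it passed in all 8 other settings and in all 6 leave-one-out fits (0.75 to 0.97). Relative to the summed level of the other 9 genes in the same library, *apoeb* stood at 163%, 109% and 131% in mutants and at 71.1%, 88.4% and 71.6% in wildtype. The 9 genes themselves summed to 70.6, 77.7 and 75.4 CPM in mutants and 76.6, 69.6 and 67.3 CPM in wildtype, with overlap. The 9 are the genes that did not pass in these same libraries. The ratio and the contrast with *apoeb* therefore follow in part from that split and are only a description.

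Because *apoeb* is also made outside macrophages, a list of 16 lipoprotein and plasma protein genes of yolk and liver was examined beside it, of which 13 were found and 12 tested. All 12 had positive log2 fold changes, with a median of 0.93. Of these, 4 passed, namely *tfa* (transferrin, 3.58), *apoc2* (1.61), *apoa1b* (1.53) and *apoa2* (1.48). That is 33.3%, all of them higher, against 33.3% of all genes tested in either direction and 16.7% higher. All 4 were more than 2-fold higher, as were 6.06% of all genes tested. The 9 apolipoprotein genes of the list summed to 951, 249 and 854 CPM in mutants and to 248, 518 and 202 CPM in wildtype. Mutant library 2 lay below wildtype library 2 and close to wildtype library 1 in this sum, and its *apoeb* level was 85.0 CPM. Within each genotype the libraries had the same order for *apoeb* as for the apolipoprotein sum. Relative to the summed level of all 13 genes of that list, *apoeb* stood at 9.43%, 19.8% and 9.85% in mutants and at 20.2%, 11.1% and 21.4% in wildtype, with overlap. That summed level itself ran from 225 to 1222 CPM between libraries. It includes *tfa*, with means of 186 CPM in mutants and 15.5 CPM in wildtype. A ratio to so variable a sum cannot show how much of the *apoeb* difference comes from yolk or liver. When mutant libraries 1 and 3 were left out, a setting chosen after seeing the data, the log2 fold change of *apoeb* was 0.64. The lone mutant library has no measured spread in that fit, so only the size of the difference is given. In the same fit *apoc2*, *apoa1b* and *apoa2* had log2 fold changes of 0.13, 0.45 and 0.55, and *tfa* had 3.45. In mutant library 2 *tfa* stood at 168 CPM, against 11.7, 21.2 and 13.6 CPM in wildtype. The part of yolk or liver transcripts in the *apoeb* difference was not tested.

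**Figure D3:**
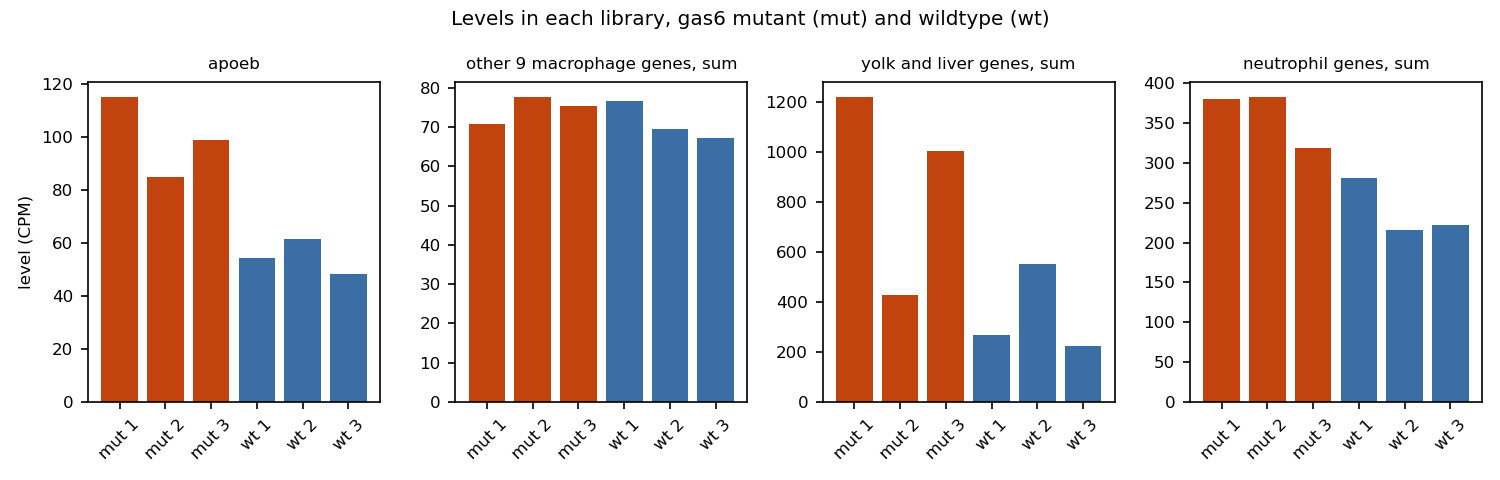
Bars give the level in CPM in each library, with 3 *gas6* mutant libraries (red) left of 3 wildtype libraries (blue), for *apoeb*, for the summed other 9 macrophage genes, for the summed yolk and liver genes and for the summed neutrophil genes. All mutant bars exceed all wildtype bars for *apoeb* and for the neutrophil genes, the 9 macrophage genes overlap between 67.3 and 77.7 CPM, and mutant library 2 (428 CPM) lies below wildtype library 2 (552 CPM) for the yolk and liver genes.

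Further macrophage and microglia genes were taken from a list of 46, of which 36 were found as rows of their own and 32 were tested. Of these 32 genes, 6 were higher, 2 were lower and 24 did not pass. That is 25%, against 33.3% of all genes tested. The list median was 0.21, and 12 of the 32 log2 fold changes were negative. The levels of the 36 genes summed to 269, 255 and 272 CPM in mutants and to 228, 222 and 219 CPM in wildtype. These sums averaged 265 and 223 CPM. Within them *xpr1* averaged 59.9 CPM in mutants and 31.7 CPM in wildtype, and *ctsk* 51.9 and 40.3 CPM. The difference between the sums thus lay largely in these rows, both described below. The complement genes *c1qb* and *c1qc* and the signalling adaptor gene *tyrobp* were too low to test, with at most 0.41 CPM in any library. *mfap4* and *marco*, both used as macrophage markers in zebrafish, did not pass (0.28 and 0.07, adjusted p = 0.162 and 0.86).

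Among the genes that rose, *xpr1*, the row for the phosphate exporter gene *xpr1b*, had the smallest adjusted p. It had 60.0, 60.4 and 59.3 CPM in mutants, against 25.4, 35.8 and 33.9 CPM in wildtype (log2 fold change 0.92, SE 0.126, adjusted p = 0.000234). *p2ry12*, a nucleotide receptor gene that marks mature microglia, had 1.27, 0.858 and 0.977 CPM in mutants and 0.501, 0.630 and 0.466 CPM in wildtype. The genotypes did not overlap, but with 10 to 27 counts per library the call was marginal (0.93, SE 0.317, adjusted p = 0.0409) and it was lost in all 6 leave-one-out fits. *itgb2*, which encodes the shared beta chain of leukocyte integrins, rose by a log2 fold change of 0.46 (adjusted p = 0.0348) and passed in 1 of these 6 fits, the one without wildtype library 1 (adjusted p = 0.0475). *ctsk*, a cathepsin protease gene also used by other cells, rose by 0.37 (adjusted p = 0.0139) and passed in 4 of them. The cytokine gene *il1b* had 4.87, 1.79 and 1.74 CPM in mutants and 0.957, 1.47 and 1.17 CPM in wildtype, so that mutant library 1 stood apart (1.17, adjusted p = 0.0384). Without that library *il1b* did not pass (0.55, adjusted p = 0.185), nor did it without wildtype library 1 or 3.

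Of the chemokine rows of the list, the row *si:dkey-25o1_6*, now named *ccl34b.1*, had 2.74, 2.86 and 2.75 CPM in mutants and 0.8199, 1.302 and 0.7924 CPM in wildtype (log2 fold change 1.51, adjusted p = 0.000843). The related chemokine row *si:ch211-122l24_4*, now *ccl34a.4*, had 2.99, 2.32 and 2.79 CPM in mutants against 9.66, 5.92 and 7.50 CPM in wildtype (-1.51, adjusted p = 0.000241). Both sets of values were well separated between genotypes. *ctssb_1*, the row for the cathepsin S gene *ctss2.1*, was lower in mutants at 8.37, 8.01 and 10.3 CPM, against 16.8, 16.3 and 15.9 CPM in wildtype (-0.87, adjusted p = 0.000481), while the row *ctssb_2*, now *ctss2.2*, did not pass (0.02, adjusted p = 0.939).

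The signals that feed these cells were examined next. The 3 ligand genes of the Csf1 receptor were *csf1a*, *csf1b* and *il34*. *csf1b* had 6.13, 6.33 and 5.76 CPM in mutants, against 8.79, 7.81 and 7.69 CPM in wildtype (log2 fold change -0.42, SE 0.143, adjusted p = 0.0416). Its genotypes were separate, but it did not pass in any of the 6 leave-one-out fits (adjusted p from 0.056 to 0.114). *csf1a* had 6.64, 6.97 and 7.49 CPM in mutants and 12.8, 7.06 and 10.1 CPM in wildtype. Wildtype library 2 lay among the mutants, and the difference did not pass (log2 fold change -0.50, adjusted p = 0.0679). It passed only in the fit lacking that library (-0.71, adjusted p = 0.00721, within 0.00721 to 0.222 over the 6 leave-one-out fits). *il34* did not pass (0.09, adjusted p = 0.738), nor did *csf1rb*, the other Csf1 receptor gene, with a wider error (0.55, SE 0.304, adjusted p = 0.181).

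Genes of dead cell engulfment were taken from a list of 32, of which 26 were found and 25 tested, with *axl* not matched. They split evenly, with 5 higher and 5 lower (40%, against 33.3% of all genes tested) and a median of 0.00. Of the Gas6 receptor genes, *mertk* did not pass (9.94, 8.97 and 9.41 CPM in mutants, 10.8, 9.96 and 11.2 CPM in wildtype, adjusted p = 0.316) and *tyro3* was higher (log2 fold change 0.50, adjusted p = 0.0333), a call kept in 1 of the 6 leave-one-out fits. The related ligand gene *pros1* did not pass (0.10, adjusted p = 0.534). *timd4*, which encodes a phosphatidylserine receptor, had 17, 27 and 16 counts in mutants and 2, 3 and 3 counts in wildtype. The groups were separate, at a low level in both (log2 fold change 2.69, SE 0.452, adjusted p = 0.00091). *mfge8a*, which encodes a secreted bridge to phosphatidylserine, was higher at 10.6, 10.5 and 8.18 CPM in mutants against 5.33, 5.21 and 5.59 CPM in wildtype (0.86, adjusted p = 0.00141). *megf10*, a receptor gene of engulfing glia, and *anxa5b*, which encodes a phosphatidylserine-binding annexin, rose by 0.53 and 0.51. *stab2*, a scavenger receptor gene of endothelial cells, was lower (-0.82, adjusted p = 0.000109), as were *dock1* and *rac1a* (-0.40 and -0.38), which act downstream of engulfment receptors and in most other cells.

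**Figure D4:**
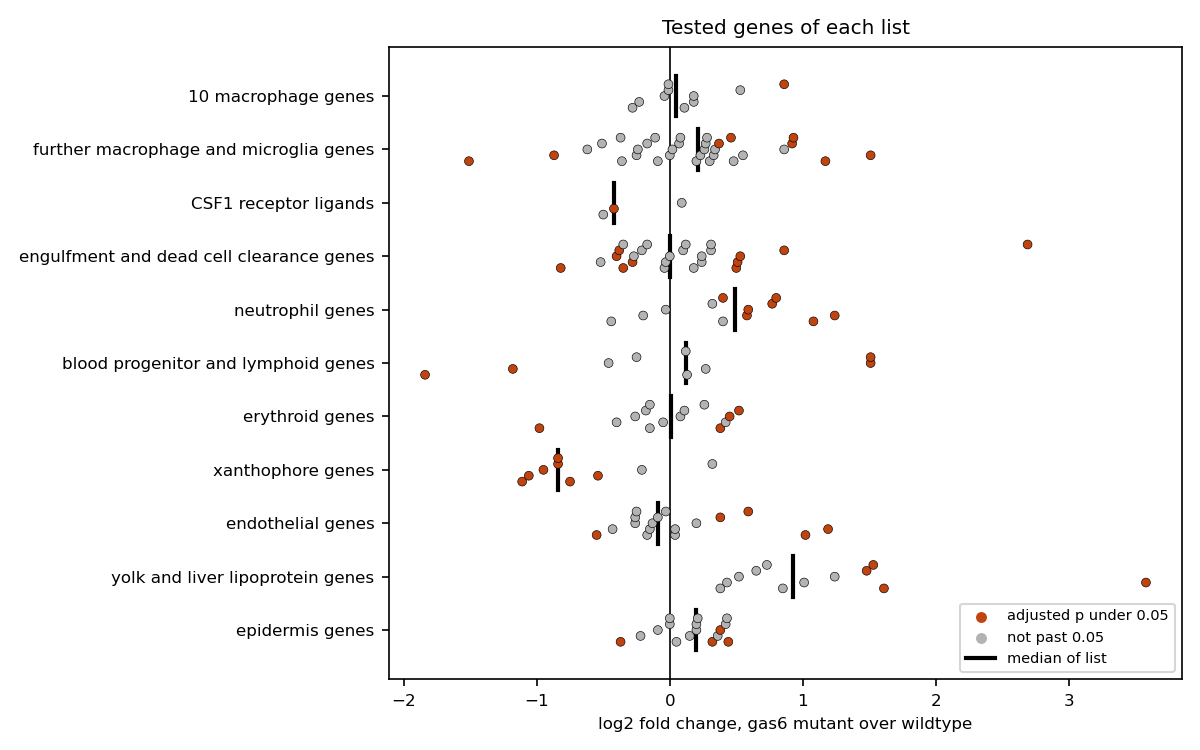
Each point is a tested gene, placed by its log2 fold change in *gas6* mutants over wildtype, with lists down the page, red for an adjusted p under 0.05 and a black tick for the list median. The 10 macrophage genes sit around 0 with *apoeb* to the right, while most neutrophil genes lie to the right and most xanthophore genes to the left.

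Other cells that the dissected tissue could hold were then read from marker lists, also chosen with earlier results of these data known. Of 12 neutrophil genes tested, 7 were higher in mutants, none was lower and 5 did not pass, with a median of 0.49. Of these 5, *csf3r*, *adam8a* and *myd88* had negative log2 fold changes (-0.44, -0.20 and -0.03). The others were *mmp9* and *abcb9* (0.32 and 0.40). The share called was 58.3%, against 33.3% of all genes tested in either direction (16.7% higher). *npsn*, which encodes a neutrophil protease, had 35.0, 35.8 and 32.9 CPM in mutants, against 17.7, 15.7 and 15.6 CPM in wildtype (1.08, SE 0.108, adjusted p = 2.5e-05). *mpx* (myeloperoxidase) and *lyz* (lysozyme) rose by 0.58 and 0.77 (adjusted p = 0.00746 and 0.00561), and *cebp1*, *mmp13a*, *il6r* and *srgn* by 1.24, 0.80, 0.59 and 0.40. Of the called genes, *il6r* and *srgn* each passed in 2 of the 6 leave-one-out fits, and the others in all 6. The 12 genes summed to 380, 383 and 318 CPM in mutants and to 281, 216 and 222 CPM in wildtype. These sums averaged 361 and 239 CPM, and within them *lyz* averaged 159 CPM in mutants and 93.3 CPM in wildtype. Relative to the 9 macrophage genes without *apoeb* in the same library, the neutrophil sum was 538%, 493% and 422% in mutants. In wildtype it was 367%, 310% and 330%. Mutant libraries 1 and 3 were also left out here, a setting chosen after seeing the data that leaves 1 mutant library. The 7 called genes then had log2 fold changes from 0.41 (*srgn*) to 1.34 (*cebp1*). They had been called with the remaining library in the fit, so these values are not a separate test. As *ptprc*, *lcp1*, *coro1a* and *spi1b* are shared with neutrophils, the part of neutrophils in the values of these genes was not tested.

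*csf1ra* is also expressed in xanthophores, the yellow pigment cells. Of 9 xanthophore genes, 7 were lower in mutants and 2 did not pass, with a median of -0.84. These 2 were *pax7a*, which went the other way (0.32), and *scarb1* (-0.21), which is also on the engulfment list. The share called was 77.8%, against 33.3% of all genes tested in either direction (16.6% lower). The genes summed to 298, 319 and 300 CPM in mutants and 653, 542 and 565 CPM in wildtype. *gch2*, which encodes the first enzyme of pteridine synthesis, had 172, 177 and 170 CPM in mutants and 414, 321 and 347 CPM in wildtype (-1.06, adjusted p = 3.5e-05). The others that passed were *PTS*, *pax7b*, *slc2a11b*, *aox3*, *slc2a15b* and *xdh*, with log2 fold changes from -1.11 to -0.54. The part of xanthophores in the *csf1ra* level was not tested.

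Blood progenitor and lymphoid genes were mixed, with 2 higher (*ikzf1* and *rag1*, both 1.51), 2 lower (*gata2b*, -1.84, and *myb*, -1.18) and 5 not passing, around a median of 0.12. These 4 of 9 tested are 44.4%, against 33.3% of all genes tested. Counts of *rag1* were low, with 12, 11 and 19 in mutants and 2, 7 and 4 in wildtype. It passed in 2 of the 6 leave-one-out fits. *gata2b* had 6, 11 and 19 counts in mutants and 41, 39 and 35 in wildtype, and passed in all 6. The list summed to 45.5, 44.9 and 47.4 CPM in mutants and to 65.6, 54.8 and 53.9 CPM in wildtype, without overlap. In this sum *myb* alone averaged 9.65 CPM in mutants and 21.8 CPM in wildtype, while the whole list averaged 45.9 and 58.1 CPM. The difference in the sum thus lay largely in *myb*, which is also a gene of dividing neural progenitors. Of 14 erythroid genes, *alas2*, *hbbe1_2* and *hbbe2* were higher and *hbbe3* was lower (28.6%), with a median of 0.01. Of 17 endothelial genes, 4 were higher (*si:dkey-208k22_3*, *slc2a1a*, *vsg1* and *flt1*), *sox7* was lower and 12 did not pass (29.4%), with a median of -0.09. Of 16 epidermis genes, *cldne*, *zgc:92533* and *cldni* were higher, *zgc:109868* was lower and 12 did not pass (25%), with a median of 0.20. The shares of these last 3 lists lay below the 33.3% of all genes tested, and their sums overlapped between genotypes. Of their called genes, *flt1* passed in 0 of the 6 leave-one-out fits, and *hbbe2* and *zgc:92533* in 1. *hbbe1_2*, *cldni* and *zgc:109868* passed in 2, *cldne* in 3, *alas2* in 4 and the others in all 6.

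The 5 genes whose levels over the 6 libraries were most like the mean log2 level of the 10 macrophage genes were *zgc:171570*, *ap4b1*, *ankrd24*, *slc30a4* and *CTBP1* (Pearson r from 0.988 to 0.998, on log2(CPM + 0.5)). They were taken from 18292 genes with a mean of at least 1 CPM, of which 249 had an r over 0.9. With 6 points that share library and genotype, these values only describe the pattern. None of the 5 was on any of the lists, and the macrophage mean itself moved little, from 2.99 to 3.08 in mutants and from 2.83 to 2.99 in wildtype.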

How the data were processed

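Total RNA from pooled hindbrains was made into stranded mRNA libraries. The reads were analysed by the authors in the Dolphin web interface, and the submitters' processing notes name FastQC, RSEM 1.2.28, DESeq2, GRCz10 and danRer7 without their roles, and coordinates are therefore left out. A single table was deposited by the authors, with an estimated count per gene and library, not normalized. For 7 of the 10 macrophage genes all counts were whole. The deposited adjusted p-value, log2 fold change and fold change (ratio) of the authors' own comparison were not used.

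Counts were rounded, filtered with filterByExpr (minimum count 10, minimum total 15), scaled with TMM factors, and tested by quasi-likelihood (glmQLFit, glmQLFTest) in edgeR 4.0.16 under R 4.3.3, with genotype as the only factor. This left 20463 genes and 4 residual degrees of freedom. The study names only a more than 2-fold change as its criterion, so the count model was chosen here. P-values were adjusted by Benjamini-Hochberg over all genes tested, and genes were called at 0.05. Intervals are 95% and, like the SE, derive from the quasi-likelihood F statistic. The fit was tested on simulated data. The alternatives were DESeq2 1.42.0, limma 3.58.1 voom, other scalings, other filters (none, or at least 1 CPM in 3 libraries), a limit of 0.01, a replicate block and leaving out libraries.

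The 10 genes and all lists were chosen with earlier results of these data known. Named genes are the 10, the ligands and receptors of the Csf1 and Gas6 pathways, and up to 8 called genes per list with the largest change. *MPEG1* and the examples that did not pass were added after their values were seen. Names were matched exactly, by letter case, with the dot written differently or through older names in the RefSeq gene table of GRCz12tu.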

Additional observations from a re-analysis of the deposited data

How the results depend on the processing

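*gas6* stayed between -2.98 and -2.82 over 8 other settings and between -3.04 and -2.86 when 1 library was left out. *apoeb* passed in all 8 other settings (0.86 to 1.01), at the limit of 0.01 and in all 6 leave-one-out fits (0.75 to 0.97). Without mutant libraries 1 and 3, where 1 mutant library remains, it was 0.64. The number of the 10 macrophage genes called was 1 throughout, except 2 with library totals, where 1 exceeded 2-fold, and up to 3 when 1 library was left out (1 to 3, with wildtype library 1 out). Library totals moved the median of all genes by 0.15, to 0.16, and relative to that median *apoeb* stood at 0.85 as before. The median of the 10 was 0.01 to 0.13 when 1 library was left out.

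Genes near 0 changed sign without passing. With upper quartile scaling *mpeg1* and *coro1a* were both 0.03. With library totals *mpeg1*, *spi1a* and *coro1a* were 0.13, 0.11 and 0.14. Without mutant libraries 1 and 3 *mpeg1*, *spi1a*, *coro1a* and *il34* were 0.11, 0.27, 0.05 and -0.14. Leaving out 1 library gave *mpeg1* -0.13 to 0.07, *spi1a* -0.23 to 0.15, *coro1a* -0.08 to 0.09, *csf1ra* -0.07 to 0.21 and *il34* -0.01 to 0.25. The causes were not tested.

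The Csf1 receptor ligand count (1) was 0 under DESeq2, upper quartile scaling, library totals and the limit of 0.01. At 0.01, where fewer genes pass by construction, 4 further macrophage, 4 engulfment, 1 erythroid, 2 yolk and liver and 0 epidermis genes remained called. With mutant libraries 1 and 3 out, 1 mutant library remains, so counts of called genes are not given for that fit. Leaving out 1 library gave 4 to 9 further macrophage, 0 to 1 ligand, 5 to 12 engulfment, 1 to 4 erythroid, 3 to 9 yolk and liver and 0 to 7 epidermis genes, while the calls over all genes in these fits were 4661 to 6919. Replicate numbers did not pair the libraries (correlations of same-numbered deviations 0.0155, -0.0679 and 0.0353). A replicate block called 1 of the 10 genes, 0 ligands and 6359 genes in all, against 6813. Over all genes, 3831 passed at 0.01.

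The lowest count of a macrophage gene in any library was 20, for *irf8*, whose SE of 0.252 was the highest of the 10.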
